A study of Mus musculus with 11 samples.

Results

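Aminoacyl-tRNA synthetases, the enzymes that join each amino acid to its transfer RNA, were followed by messenger RNA level in mouse cells labelled as cavernous endothelial, from the erectile tissue of the penis. The members were the rows of the deposited files whose gene symbol named such an enzyme, 36 of 23282 rows per file: 20 cytosolic and 16 mitochondrial, the latter with symbols ending in 2. All 36 were found in each of the 11 files, and all 36 passed the filter on low values (normalized count 1 or more, in 3 or more libraries), which left 18248 genes for testing. The lowest value of any member in any library was 3.81 on the log2 scale.

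The 11 libraries came from cells kept for 5 days in normal glucose (n = 3), in high glucose (n = 4) or in high glucose with Hsp70, a chaperone protein (n = 4). All cells were grown in the same medium with 20% fetal bovine serum, and the labels give no strain, age, glucose concentration, form or dose of Hsp70, or number of animals. Each file name also carries a set number. Sets 3, 4 and 5 held normal glucose replicates 1, 2 and 3, high glucose replicates 2, 3 and 4, and Hsp70 replicates 2, 3 and 4, in that order. Set 2 held high glucose replicate 1 and Hsp70 replicate 1 and no normal glucose library. Values are log2(normalized count + 1), and a library's normalized counts summed to between 24789387 and 27807569. The labels do not state whether replicates came from different cultures or animals. The p-values therefore measure only how far these samples spread, which may be technical.

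Set 3 stood apart in its markers, and the cell label was only partly borne out. The summed normalized counts of 10 endothelial markers were 1525 to 1771 in the 3 libraries of set 3 and 165.4 to 406.5 in the other 8. The defining genes Tie1, Cldn5 and Robo4 were at exactly 0 in 1, 2 and 2 libraries. Exact 0s cannot be compared between sets, because every library of sets 4 and 5 had the same genes at 0. In sets 2, 4 and 5 Tie1 had means of 0.47, 1.24 and 0.57 log2 units. Cldn5 had 0.0, 0.09 and 0.15 there, and Robo4 0.0, 0.98 and 0.56. Of the other endothelial markers, Cdh5 and Tek were the highest outside set 3. Cdh5 had means of 7.72, 9.33, 6.06 and 6.61 log2 units in sets 2 to 5, and Tek 5.32, 5.51, 6.16 and 6.24. In the same order Pecam1 had 3.41, 8.98, 3.75 and 3.34, Kdr 4.28, 7.38, 3.03 and 3.44, and Esam 4.39, 5.74, 4.25 and 4.41. Vwf and Nos3 were lower still, at 2.70 and 2.25 in set 2, 1.96 and 1.69 in set 4, and 2.45 and 1.45 in set 5. The 8 fibroblast markers summed to 332724 to 409285 in set 3 and to 162372 to 265084 elsewhere. Dcn, Lum, Col3a1, Thy1 and Fbln1 had their highest mean in set 3, with Dcn at 17.43 against 15.22, 15.76 and 15.52 log2 units in sets 2, 4 and 5. Col1a1 and Col1a2 were highest in set 4 (14.67 and 15.30, against 14.33 and 15.03 in set 3). Pdgfra was highest in set 5 (15.47, against 15.24 in set 3). The 7 macrophage markers summed to 2152 to 2733 in set 3 and to 435.0 to 745.5 elsewhere, with Aif1 at 0 in 1 library. Their part in the results was not tested, and the cytosolic difference with Hsp70 and the differences among sets are also given without set 3. In bulk RNA, fewer cells of a type and less RNA per cell cannot be told apart.

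As background, the cytosolic enzymes charge the transfer RNAs that feed the cytosolic ribosome, and a separate, also nuclear-encoded, group charges those of the mitochondrial ribosome. Gars and Kars encode both forms from 1 gene. Several cytosolic enzymes sit with scaffold proteins in the multisynthetase complex. When amino acids run short or unfolded proteins pile up, phosphorylation of eIF2 favours translation of ATF4, a transcription factor that binds C/EBP-ATF response elements near genes for amino acid synthesis, amino acid uptake and many cytosolic, but few mitochondrial, synthetases.

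Cytosolic enzymes were the more abundant class in every library. Per kilobase of merged exon, the scale on which genes can be compared, the median normalized count was 454.0 for the 20 cytosolic enzymes and 56.3 for the 16 mitochondrial ones. The cytosolic range ran from 132.8 for Farsa, the catalytic subunit of phenylalanyl-tRNA synthetase, to 1251 for Nars, which charges asparagine. The mitochondrial range ran from 4.43 for Mars2 to 2472 for Lars2, the mitochondrial leucyl-tRNA synthetase, which ranked 1 of all 36. Without Lars2 the mitochondrial median was 52.5 and the highest enzyme was Iars2 at 233.7 per kilobase. The ranges of the classes therefore overlapped only through Lars2, Iars2 and Rars2 on the mitochondrial side and Yars and Farsa on the cytosolic side.

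**Figure D1:**
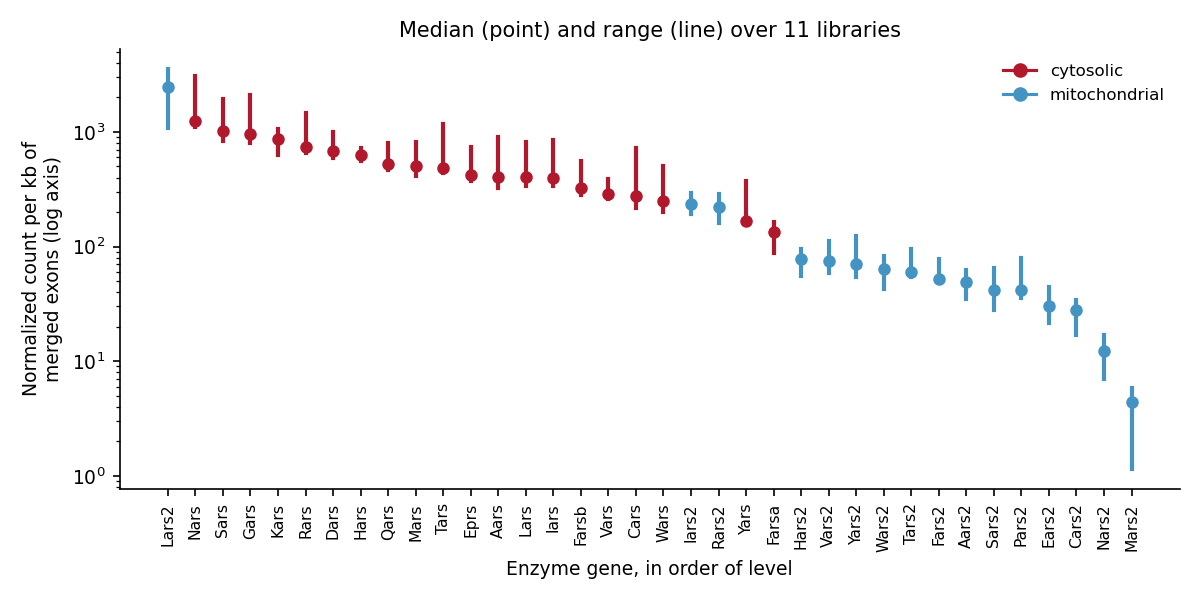
Normalized count per kilobase of merged exon (log axis) for the 36 enzyme genes, in order of their median over 11 libraries (points), with lines from the lowest to the highest library. Cytosolic enzymes (red) fill the left side and mitochondrial enzymes (blue) the right, with Lars2 at the far left at 2472.

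Between libraries, the cytosolic class moved more than the mitochondrial class. The median log2 value of the 20 cytosolic enzymes was 11.08, 11.19 and 11.42 in normal glucose, 11.40, 11.11, 11.13 and 11.11 in high glucose, and 12.11, 11.11, 11.34 and 11.01 with Hsp70. The group means were 11.23 ± 0.174 (SD, n = 3), 11.19 ± 0.142 (SD, n = 4) and 11.39 ± 0.499 (SD, n = 4). The groups overlapped, and Hsp70 replicate 1 was above the other 10 libraries. The mitochondrial median was 7.99 ± 0.0241 (SD, n = 3), 8.11 ± 0.0671 (SD, n = 4) and 8.13 ± 0.101 (SD, n = 4) in the same order, with a range of 7.96 to 8.26 over all 11 libraries.

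The gap between the class medians was 3.08, 3.23 and 3.41 log2 units in normal glucose, 3.27, 2.94, 3.00 and 3.09 in high glucose, and 3.85, 2.97, 3.23 and 2.99 with Hsp70. It was thus widest in Hsp70 replicate 1, where the median over all genes tested, 7.91, lay inside the range of the other libraries (7.88 to 8.02). These gaps are given without a test, because the members were chosen with earlier results of the same files known.

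**Figure D2:**
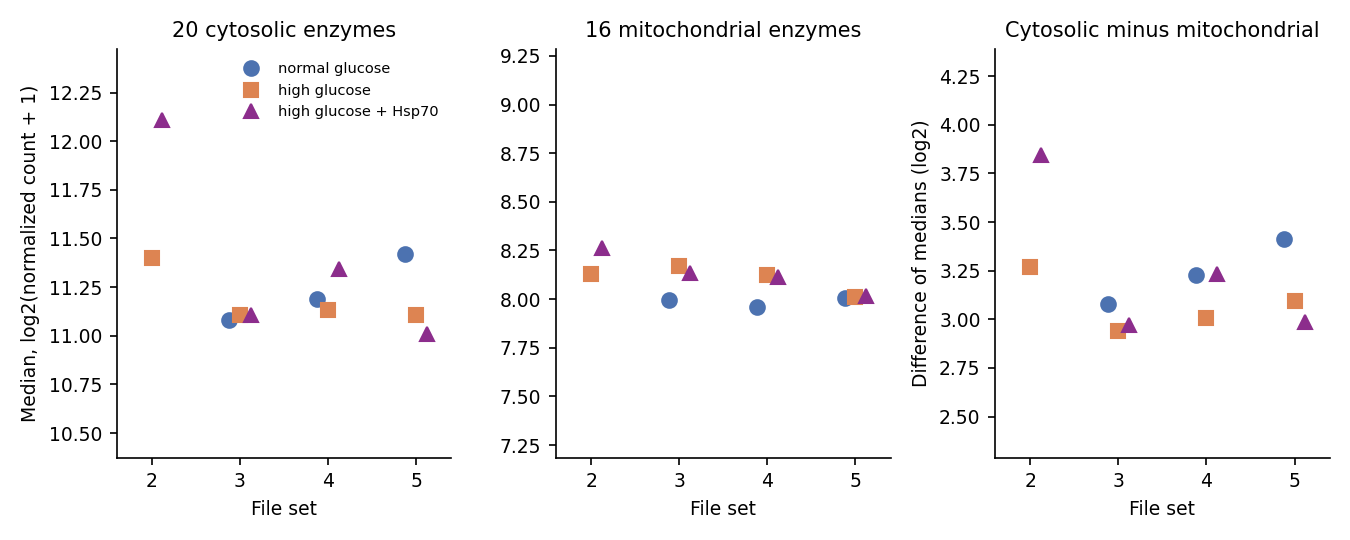
Median log2(normalized count + 1) of the cytosolic and mitochondrial enzymes, and the difference of the medians, for each of the 11 libraries by file set and group. The 3 panels span the same number of log2 units. Hsp70 replicate 1 (triangle in set 2) is the highest cytosolic point at 12.11, whereas the mitochondrial points stay between 7.96 and 8.26.

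No synthetase differed between groups by the test over all genes. For high against normal glucose, limma called 0 of 18248 genes at an adjusted p under 0.05 (0%) and 0 of the 36 members, and 185 genes but no member had an unadjusted p under 0.05. For Hsp70 against high glucose it again called 0 genes (0%) and 0 members, with 136 genes and no member at an unadjusted p under 0.05. For Hsp70 against normal glucose it called 0 genes (0%) and 0 members, with 178 genes and no member at that level. The adjusted p of all members was 1.0 in each comparison. The median standard error of a cytosolic member was 0.251 for high against normal glucose, and a typical interval was wide, such as -0.18 to 0.92 for Yars2.

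The members were also compared by whether the groups' values overlapped. All values of high glucose lay on 1 side of all values of normal glucose for 2.38% of the genes tested and for 1 of 36 members, Yars2. The same held for 0.608% of genes and 0 members between Hsp70 and high glucose, and for 1.72% of genes and 0 members between Hsp70 and normal glucose. These counts are near those of all genes.

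The largest pattern among the cytosolic enzymes lay in Hsp70 replicate 1. This library held the highest value of all 11 for 15 of the 20 cytosolic enzymes and for 2 of the 16 mitochondrial ones, Iars2 and Yars2. The 15 included all 12 cytosolic enzymes on a list of ATF4 targets drawn up from general knowledge of ATF4 (Aars, Cars, Eprs, Gars, Iars, Lars, Mars, Nars, Sars, Tars, Wars and Yars) and 3 of the 8 not on it (Dars, Farsb and Rars). Qars, the glutaminyl-tRNA synthetase, went the other way and was lowest there. The list was drawn up with earlier results of these data known, so its counts are a description and no independent support. The share of all genes with their highest value in this library was not counted.

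**Figure D3:**
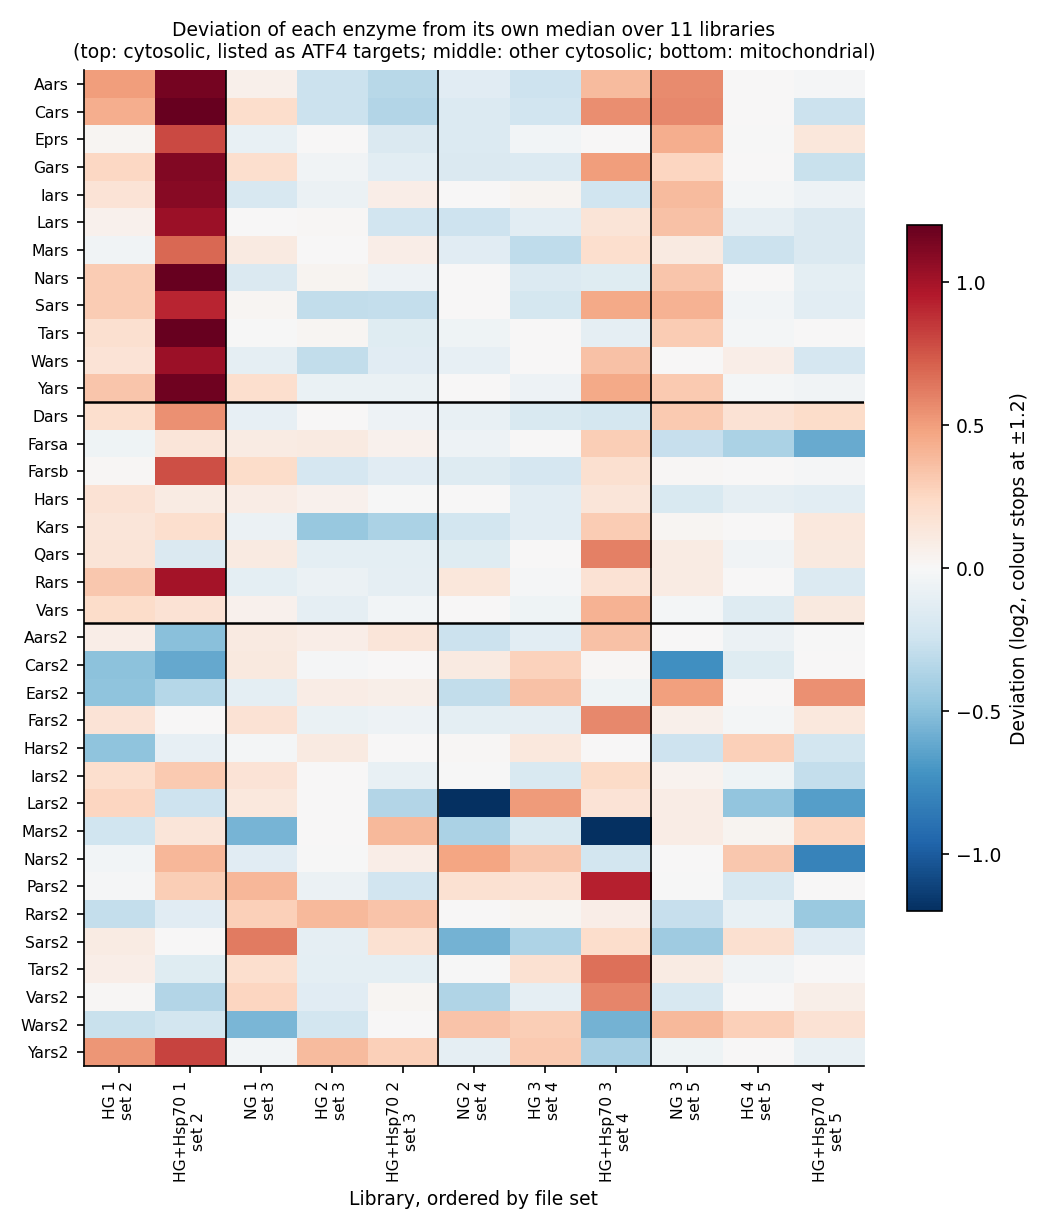
Each cell is the log2 value of 1 enzyme in 1 library minus that enzyme's median over the 11 libraries, with libraries (NG, normal glucose; HG, high glucose) ordered by file set and red above, blue below the median. The red column of Hsp70 replicate 1 covers the 12 cytosolic enzymes listed as ATF4 targets, and Dars, Farsb and Rars, whereas the mitochondrial rows are mixed.

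Within set 2, Hsp70 replicate 1 minus high glucose replicate 1 was above 0 for 17 of 20 cytosolic enzymes, with a median of 0.74. It was at least 0.5 for 14 of 20, against 11.4% of all genes tested and 2.69% of the 6572 genes as abundant as the lowest cytosolic enzyme. All 12 of the ATF4-listed enzymes passed 0.5, from 0.60 for Sars to 1.10 for Tars, with a median of 0.86. Of the other 8, Farsb (0.76) and Rars (0.67) passed it, and the median was 0.12. The mitochondrial enzymes had 9 of 16 above 0, 0 of 16 at 0.5 or more and a median of 0.08. The ATF4 list was drawn up with earlier results of these data known, and the limit of 0.5 was chosen after the values were seen. Each of these values compares 1 library with 1 other, with no replicate check.

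Sets 3 and 5 did not show this, and in set 4 the cytosolic enzymes were higher with little gap between the medians of the ATF4-listed and other enzymes. In set 3 the cytosolic median of Hsp70 minus high glucose was -0.04 with 0 of 20 at 0.5 or more. The share was 11.3% of all genes and 2.07% of genes as abundant as the lowest cytosolic enzyme. In set 5 the cytosolic median was -0.03, also with 0 of 20, against 15.5% and 5.63% by the same 2 shares. In set 4 it was 0.38 with 17 of 20 above 0 and 7 of 20 at 0.5 or more, against 17.7% and 14.6%. There the median was 0.43 for the ATF4-listed and 0.35 for the other cytosolic enzymes, with 6 of 12 and 1 of 8 at 0.5 or more. The 4 mitochondrial medians, in sets 2 to 5, were 0.08, 0.01, -0.04 and -0.02.

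**Figure D4:**
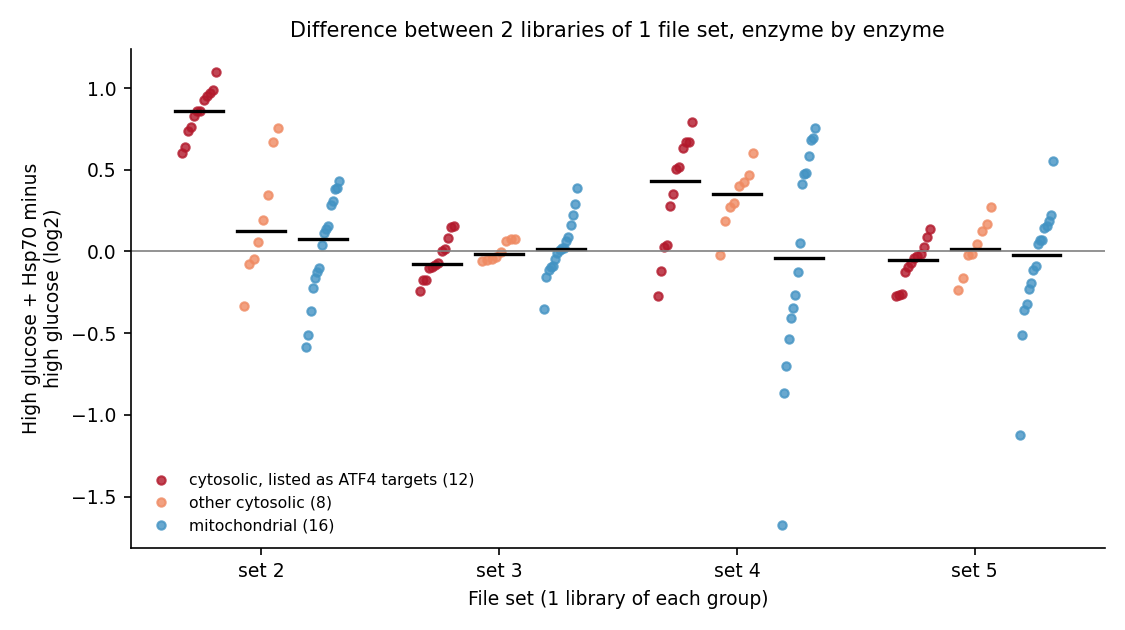
Log2 difference between the Hsp70 and the high glucose library of each file set for 12 cytosolic enzymes listed as ATF4 targets, 8 other cytosolic and 16 mitochondrial enzymes (points), with the median of each (black lines). The ATF4-listed medians stand at 0.86 in set 2 and 0.43 in set 4, and near 0 in sets 3 and 5. The other cytosolic medians stand at 0.12 in set 2 and 0.35 in set 4.

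Mars, the cytosolic methionyl-tRNA synthetase (chr10:127296221-127311786, minus strand, build GRCm38), had the smallest p of any member for Hsp70 against high glucose. Its log2 values were 10.87, 10.63 and 10.87 in normal glucose, 10.72, 10.77, 10.46 and 10.51 in high glucose, and 11.46, 10.85, 10.97 and 10.60 with Hsp70. Hsp70 replicate 1 was highest, and Hsp70 replicate 4 lay inside the high glucose range. The difference was 0.35 (SE 0.177, 95% interval -0.03 to 0.74, unadjusted p = 0.0701, adjusted p = 1.0 by limma), and it was above 0 in 4 of 4 sets. With the file set as a block in the model it was 0.35 (SE 0.139, unadjusted p = 0.0315, adjusted p = 0.9995 by limma). Without Hsp70 replicate 1 and without the block it was 0.19 (SE 0.147). The gene overlaps Ddit3, itself an ATF4 target, on the opposite strand, and which strand the authors counted is not given in the sources used here.

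Farsb and Vars were the next 2 by p. Farsb, the other subunit of cytosolic phenylalanyl-tRNA synthetase (chr1:78417975-78488897, minus strand), gave 9.96, 9.59 and 9.75 in normal glucose, 9.75, 9.54, 9.53 and 9.74 in high glucose, and 10.51, 9.61, 9.93 and 9.72 with Hsp70. Only Hsp70 replicate 1 exceeded the normal glucose range. Its partner Farsa did not share this, with 9.38 in Hsp70 replicate 1 and 9.19 in high glucose replicate 1, although both subunits are needed for the enzyme. Vars, which charges valine (chr17:35000987-35016322, plus strand), gave 10.71, 10.66 and 10.64, then 10.88, 10.55, 10.61 and 10.50, then 10.84, 10.63, 11.08 and 10.78 in the 3 groups. Here Hsp70 replicate 3 was highest, and the difference of 0.19 (SE 0.137) was the same without Hsp70 replicate 1.

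Sars, the seryl-tRNA synthetase (chr3:108424865-108445209, minus strand), gave 12.38, 12.36 and 12.78 in normal glucose, 12.67, 12.06, 12.15 and 12.33 in high glucose, and 13.27, 12.08, 12.82 and 12.24 with Hsp70. Hsp70 replicates 1 and 3 were the 2 highest libraries, and the other 2 Hsp70 libraries lay inside the high glucose range. Aars, which charges alanine (chr8:111033144-111057664, plus strand), gave 11.94, 11.74 and 12.45, then 12.39, 11.62, 11.63 and 11.88, then 13.03, 11.55, 12.27 and 11.87. Its lowest and its highest library both belonged to the Hsp70 group. Gars, which charges glycine in cytosol and mitochondria (chr6:55038007-55079500, plus strand), gave 11.76, 11.38 and 11.81, then 11.81, 11.51, 11.39 and 11.56, then 12.67, 11.43, 12.06 and 11.29. It too spanned the whole range within the Hsp70 group.

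Eprs charges both glutamate and proline with 1 fused protein (chr1:185363044-185428360, plus strand). Its values were 12.82, 12.74 and 13.35 in normal glucose, 12.93, 12.91, 12.87 and 12.90 in high glucose, and 13.70, 12.73, 12.91 and 13.04 with Hsp70. High glucose varied little, whereas normal glucose replicate 3 and Hsp70 replicate 1 were high. Wars, the tryptophanyl-tRNA synthetase, which interferon gamma induces (chr12:108860030-108894174, minus strand), gave 9.63, 9.64 and 9.75, then 9.90, 9.45, 9.74 and 9.81, then 10.76, 9.60, 10.09 and 9.54. Its difference of 0.33 from normal glucose (SE 0.255, unadjusted p = 0.224, adjusted p = 1.0 by limma) had the smallest p of the cytosolic enzymes there, and it was 0.07 without Hsp70 replicate 1. The summed counts of 8 interferon response genes were also highest in that library, at 105520, with 65405 to 105520 in sets 2, 4 and 5 and 32847 to 49138 in set 3; their part was not tested.

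The remaining cytosolic enzymes given by library were Kars, Hars, Dars and Rars. Kars, the lysyl-tRNA synthetase of both compartments (chr8:111993443-112011323, minus strand), gave 11.85, 11.70 and 11.94 in normal glucose, 12.07, 11.46, 11.80 and 11.92 in high glucose, and 12.12, 11.54, 12.22 and 12.04 with Hsp70. It was lowest in set 3 in both high glucose groups and highest in Hsp70 replicate 3. Hars, the histidyl-tRNA synthetase, gave 10.69, 10.60 and 10.41, then 10.78, 10.65, 10.47 and 10.50, then 10.70, 10.60, 10.75 and 10.47. It stayed within a narrow band, with its highest value in high glucose replicate 1. Dars, the aspartyl-tRNA synthetase (chr1:128363707-128417368, minus strand), gave 11.43, 11.44 and 11.85, then 11.73, 11.53, 11.34 and 11.70, then 12.07, 11.47, 11.32 and 11.75, with the libraries of sets 2 and 5 above those of sets 3 and 4 within each group; set 2 has no normal glucose library. Its highest value was in Hsp70 replicate 1. Rars, the arginyl-tRNA synthetase (chr11:35808381-35834506, minus strand), gave 11.09, 11.35 and 11.30, then 11.53, 11.13, 11.19 and 11.21, then 12.20, 11.10, 11.38 and 11.04, and the libraries of set 2 held 2 of its highest values, 11.53 and 12.20.

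Over the 4 Hsp70 and 4 high glucose libraries, all 20 cytosolic enzymes had a fitted difference above 0, with a median of 0.20 and a range of 0.03 to 0.35, against 0.00 over all genes tested. The mitochondrial enzymes had 8 of 16 above 0, with a median of -0.02 and a range of -0.35 to 0.28. Without Hsp70 replicate 1 the cytosolic count was 11 of 20 with a median of 0.01, and without Hsp70 replicates 1 and 3 it was 5 of 20 with a median of -0.11. Without both libraries of set 2 (sets 3, 4 and 5 only) it was 14 of 20 with a median of 0.09. Without Hsp70 replicate 3 alone it was 17 of 20 with 0.25, and without set 3 it was 20 of 20 with 0.31. The direction of the cytosolic class therefore rested on Hsp70 replicates 1 and 3.

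**Figure D5:**
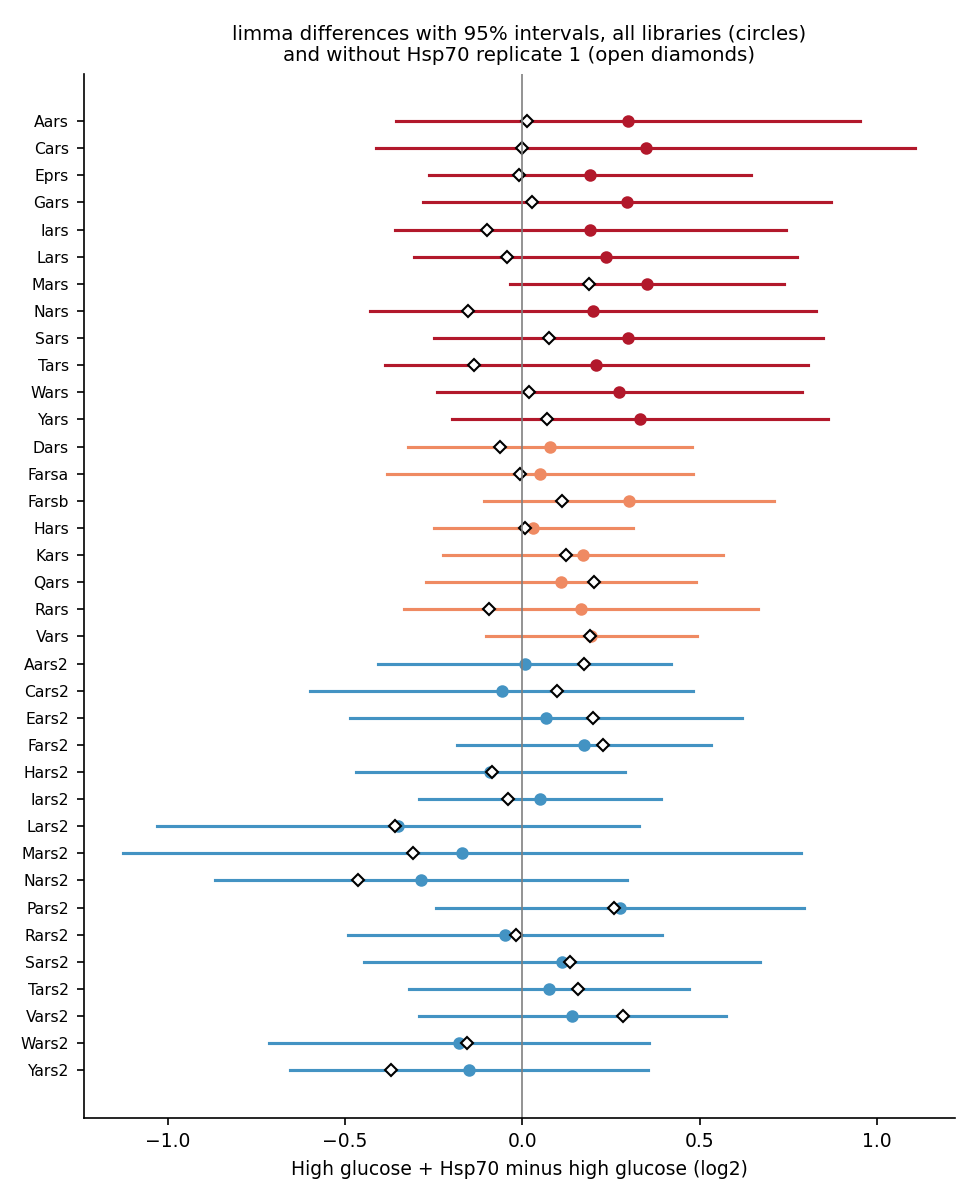
Log2 difference of the Hsp70 group from high glucose for each enzyme by limma with all libraries (circles, with 95% intervals), and without Hsp70 replicate 1 (open diamonds); dark red marks ATF4-listed cytosolic, orange other cytosolic and blue mitochondrial enzymes. All 20 cytosolic circles lie above 0, every interval crosses 0, and 11 of the 20 cytosolic diamonds remain above 0.

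Against normal glucose, a comparison that uses the same Hsp70 libraries, the cytosolic enzymes were 20 of 20 above 0 with a median of 0.16, and the mitochondrial ones 12 of 16 with a median of 0.03. The cytosolic count was 6 of 20 with a median of -0.06 without Hsp70 replicate 1, and 13 of 20 with 0.02 when the file set was a block in the model. Within sets 3, 4 and 5 the cytosolic medians were -0.11, 0.38 and -0.31, and 0, 5 and 0 of 20 enzymes were higher by at least 0.5, against 20.4%, 17.6% and 13.6% of all genes. In the same sets 1, 0 and 5 of 20 were lower by at least 0.5, against 14%, 25.6% and 11.2%. Among genes as abundant as the lowest cytosolic enzyme, 14.8%, 13.6% and 1.28% were higher and 7.59%, 19.5% and 1.99% lower by at least 0.5. The 5 lower enzymes in set 5 were all on the ATF4 list. The 5 higher enzymes in set 4 were 3 of the 12 on the list and 2 of the 8 not on it. The cytosolic medians of sets 4 and 5 went opposite ways.

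The cytosolic enzymes of the multisynthetase complex behaved as a mixture. Over all libraries its 8 members (Eprs, Iars, Lars, Mars, Qars, Rars, Kars and Dars) gave a median of 0.18 for Hsp70 minus high glucose, with 8 of 8 above 0 and 0 called; without Hsp70 replicate 1, 3 of 8 were above 0. In set 2, 5 of 8 were at least 0.5 higher, Dars (0.35) and Kars (0.06) were not, and Qars was at -0.33. The scaffold proteins that hold the complex together did not move as 1: Eef1e1 was 0.50, Aimp1 0.13 and Aimp2 -0.22 in set 2, and 0 of 3 were called. By catalytic fold, class I enzymes had a median of 0.28 (14 of 19 above 0) and class II enzymes 0.35 (12 of 17 above 0) in set 2.

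Cytosolic and mitochondrial enzymes for the same amino acid could be set side by side in 13 pairs. In set 2 the Hsp70 minus high glucose difference was larger for the cytosolic partner in 12 of 13. The pair for threonine gave 1.10 for Tars and -0.22 for Tars2, and the pair for alanine gave 0.64 for Aars and -0.59 for Aars2. The exception was histidine, with -0.08 for Hars and 0.39 for Hars2. These 2 genes lie head to head, and their ends overlap on opposite strands; reads in that short stretch, if counted without strand, could not be told apart.

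Promoter sequence was read from RefSeq (build GRCm38.p6), from 250 bases before to 50 after the annotated start, for the 27 members in the table, 13 cytosolic and 14 mitochondrial. Cars, Hars, Lars, Nars, Rars, Vars, Wars, Hars2 and Pars2 were not in it. The C/EBP-ATF response element was searched on both strands as TGATGCAAT and, more loosely, as TGATGNAAN, which contains the first. TGATGCAAT was in the promoters of 2 of 13 cytosolic enzymes, Iars among them, in 0 of 14 mitochondrial enzymes, and in 0.192% of 32851 mouse promoters of the same length. TGATGNAAN was in 5 of 13 cytosolic enzymes, Gars, Iars, Tars and Yars among them, in 0 of 14 mitochondrial enzymes, and in 3.95% of all promoters. Gars, Iars, Tars and Yars were on the ATF4 list, and in set 2 these 4 were at least 0.5 higher with Hsp70. So were 4 of the 8 searched cytosolic enzymes with no match (Eprs, Farsb, Mars and Sars), and a match is a description and not a site. Stretches of these 4 follow 5′ to 3′ on the strand of the gene, with the match in capitals, as examples of cytosolic promoters with the element. Iars and Yars are shown as 30 bases around the match, which lies in an annotated exon. Iars, Tars and Yars were added after their values were seen.
Gars, chr6:55037751-55038000, plus strand: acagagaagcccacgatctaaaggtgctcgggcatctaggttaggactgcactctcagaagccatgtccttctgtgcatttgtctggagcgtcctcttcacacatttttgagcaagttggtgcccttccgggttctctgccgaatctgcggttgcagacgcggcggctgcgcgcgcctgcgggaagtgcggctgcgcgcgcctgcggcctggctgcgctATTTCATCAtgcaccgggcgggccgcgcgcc
Iars, chr13:49682126-49682155, plus strand: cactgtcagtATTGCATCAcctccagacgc
Tars, chr15:11399666-11399908, minus strand: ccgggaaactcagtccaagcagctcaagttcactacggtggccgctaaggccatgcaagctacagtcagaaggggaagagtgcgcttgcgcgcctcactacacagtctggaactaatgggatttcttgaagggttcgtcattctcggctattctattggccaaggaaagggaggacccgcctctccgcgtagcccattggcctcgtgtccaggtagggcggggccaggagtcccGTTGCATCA
Yars, chr4:129189896-129189925, plus strand: cgagctcagcTGATGCAACccgacgggact

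The core of the element bound by NRF1, a factor known for nuclear genes of mitochondrial function, was searched as GCGCATGCG on both strands. It was in 0 of 13 cytosolic and 2 of 14 mitochondrial promoters, and in 1.75% of all promoters. Vars2, the mitochondrial valyl-tRNA synthetase, held 2 matches, and Wars2, its tryptophanyl counterpart, held 1. They are shown as the mitochondrial promoters with a match, Wars2 added after its values were seen.
Vars2, chr17:35667593-35667729, minus strand: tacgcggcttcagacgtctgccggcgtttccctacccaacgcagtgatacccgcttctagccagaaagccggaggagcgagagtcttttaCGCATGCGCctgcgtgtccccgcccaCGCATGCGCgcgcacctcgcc
Wars2, chr3:99140840-99141067, plus strand: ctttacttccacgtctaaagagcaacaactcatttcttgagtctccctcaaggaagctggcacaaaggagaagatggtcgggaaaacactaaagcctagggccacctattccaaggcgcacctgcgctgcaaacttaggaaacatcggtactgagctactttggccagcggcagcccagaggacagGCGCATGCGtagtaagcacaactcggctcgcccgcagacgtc

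High glucose was compared with normal glucose over 4 and 3 libraries. The cytosolic enzymes had 4 of 20 above 0 and a median of -0.04, and the mitochondrial enzymes 10 of 16 above 0 and a median of 0.04, against -0.01 over all genes tested. With the file set as a block, which the correlation of libraries within sets warrants for this comparison, the cytosolic count was 0 of 20 above 0 with a median of -0.22, and the mitochondrial count was 11 of 16 with 0.085 (0 members called). The block draws on set 2, so it also depends on Hsp70 replicate 1: without that library the blocked cytosolic median was -0.10, again with 0 of 20 above 0. Within sets 3, 4 and 5 the cytosolic medians were -0.13, -0.05 and -0.29, with 12, 11 and 18 of 20 below 0. At 0.5 or more lower there were 0, 0 and 2 of 20, against 13.6%, 10.3% and 12.7% of all genes. Among genes as abundant as the lowest cytosolic enzyme the shares were 5.46%, 0.943% and 3.15%. Set 5 stood out through normal glucose replicate 3, where the cytosolic median of 11.42 was the highest outside Hsp70 replicate 1.

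The 3 cytosolic enzymes with the smallest p for this comparison were Mars, Sars and Farsb. Mars gave -0.18 (SE 0.192, unadjusted p = 0.373), Sars -0.21 (SE 0.271) and Farsb -0.12 (SE 0.203), each with an adjusted p of 1.0 by limma. Their values, given above, overlapped between the groups.

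Among the mitochondrial enzymes, Yars2, the tyrosyl-tRNA synthetase (chr16:16302965-16309640, plus strand), had the smallest p for high against normal glucose. Its log2 values were 7.77, 7.69 and 7.74 in normal glucose, 8.33, 8.18, 8.12 and 7.80 in high glucose, and 8.61, 8.09, 7.42 and 7.71 with Hsp70. The high glucose values all lay above the normal glucose values, with high glucose replicate 4 the closest, and the Hsp70 values spanned both groups. The difference was 0.37 (SE 0.251, unadjusted p = 0.166, adjusted p = 1.0 by limma), higher in 3 of 3 sets. Against normal glucose, Hsp70 gave 0.22 for Yars2 (SE 0.251) and 0.00 without Hsp70 replicate 1.

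Lars2 (chr9:123366927-123462666, plus strand) gave 14.87, 13.55 and 14.83 in normal glucose, 15.00, 14.74, 15.25 and 14.27 in high glucose, and 14.49, 14.39, 14.91 and 14.08 with Hsp70. Normal glucose replicate 2 was the lowest. The ribosomal RNA gene Rn45s was also lowest there, at 0.638% of the normalized counts with a range of 0.638% to 7.0%; its part in the Lars2 values was not tested. Lars2 was lower with Hsp70 than in high glucose in 4 of 4 sets (-0.51, -0.35, -0.35 and -0.19), with a fitted difference of -0.35 (SE 0.312, unadjusted p = 0.282, adjusted p = 1.0 by limma).

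Pars2 and Nars2 ranked 1 and 3 among the mitochondrial enzymes by p for Hsp70 against high glucose, with Lars2 between them, at unadjusted p = 0.271 and 0.306 (adjusted p = 1.0 by limma). Pars2, the prolyl-tRNA synthetase (chr4:106651069-106655282, plus strand), gave 7.42, 7.20 and 7.01, then 7.01, 6.94, 7.19 and 6.83, then 7.32, 6.79, 7.95 and 7.02 in the 3 groups. Hsp70 replicate 3 was highest and Hsp70 replicate 2 lowest, for a difference of 0.28 (SE 0.239). Nars2, the asparaginyl-tRNA synthetase (chr7:96951505-97064758, plus strand), gave 6.29, 6.90 and 6.43, then 6.40, 6.42, 6.75 and 6.75, then 6.83, 6.51, 6.22 and 5.63. Hsp70 replicate 4 was lowest, for a difference of -0.29 (SE 0.267). Vars2 (chr17:35655634-35667592, minus strand) gave 8.95, 8.32 and 8.50, then 8.70, 8.55, 8.57 and 8.69, then 8.34, 8.71, 9.27 and 8.76. The Hsp70 group held the highest value and normal glucose the lowest, and the groups overlapped.

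Hsp70 replicate 3 set the mitochondrial extremes most often. It held the highest of 11 values for Aars2, Fars2, Pars2, Tars2 and Vars2 and the lowest for Mars2, Wars2 and Yars2. Within set 4, Hsp70 minus high glucose ran from -1.68 for Mars2 to 0.76 for Pars2. Of the 16 mitochondrial enzymes, 4 were at least 0.5 higher, against 17.7% of all genes, and 4 at least 0.5 lower, against 26.8%. Hars2, which charges histidine, gave 8.36, 8.40 and 8.13 in normal glucose, 7.90, 8.49, 8.51 and 8.67 in high glucose, and 8.28, 8.38, 8.38 and 8.16 with Hsp70; high glucose held both its lowest and its highest library. The remaining mitochondrial enzymes (Aars2, Ears2, Fars2, Iars2, Mars2, Sars2, Tars2 and Wars2) had no unadjusted p under 0.05 in any comparison.

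Differences among the file sets were called for few genes once set 3 was left out. An F test among the 4 sets in limma called 2165 of 18248 genes (11.9%) and 1 of 36 members, Rars2, the mitochondrial arginyl-tRNA synthetase (chr4:34614957-34660167, plus strand; adjusted p = 0.0424). Rars2 was 9.54, 9.26 and 8.98 in normal glucose, 8.97, 9.64, 9.29 and 9.17 in high glucose, and 9.12, 9.60, 9.34 and 8.81 with Hsp70. Set 3 was highest in all 3 groups, with a mean of 9.60 against 9.04, 9.29 and 8.99 in sets 2, 4 and 5. Without set 3, limma called 2 genes and 0 members among the other sets. That fit has fewer libraries, so it cannot separate lost power from the part of set 3. Rars2 had an adjusted p of 0.428 by limma in it. The call held in 5 of 19 alternatives and ended in the rest, with an adjusted p by limma of 0.000952 to 0.428; leaving out any 1 library but Hsp70 replicate 3 ended it. Aars (adjusted p = 0.0595), Dars (0.0672) and Rars (0.0710) came next by limma and did not pass. Their set means were highest in set 2, at 12.71, 11.90 and 11.87.

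Cars2, the mitochondrial cysteinyl-tRNA synthetase (chr8:11513977-11550783, minus strand), was second among the mitochondrial enzymes by this test (adjusted p = 0.125 by limma). It gave 7.80, 7.79 and 6.95 in normal glucose, 7.19, 7.67, 7.96 and 7.54 in high glucose, and 7.07, 7.69, 7.69 and 7.68 with Hsp70. Its lowest 3 values were in normal glucose replicate 3 and in both libraries of set 2, the same 3 libraries in which the cytosolic median was highest.

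Other genes of the pathway were read from fixed lists, and limma called 0 members of each in every group comparison. The 30 other ATF4 targets had a median of 0.31 for Hsp70 minus high glucose (26 of 30 above 0), and in set 2 a median of 1.16 with 22 of 30 at least 0.5 higher. Within sets 3, 4 and 5 their medians were -0.05, 0.32 and -0.12, and without Hsp70 replicate 1 the list stood at -0.09 with 11 of 30 above 0. Fgf21, a secreted stress hormone, was at most 0.09 in the 7 libraries without Hsp70. It was 2.78, 1.76, 3.17 and 0.03 in those with it, which are low counts. It passed the filter on low values only through the Hsp70 group, so its fitted difference of 1.91 (SE 0.625) is a description and no support. Cth, which makes cysteine, gave 0.81 (SE 0.487), with 2.91 in set 2 and no more than 0.17 in the other sets. Stc2, a secreted glycoprotein, gave 0.45 (SE 0.304).

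Genes that act upstream or beside the enzymes were closer to 0. The 14 genes of eIF2 kinases, the eIF2 phosphatase and eIF2B had a median of 0.09 for Hsp70 minus high glucose over all libraries and of 0.01 in set 2. Eif2b3, a subunit of eIF2B, was the exception in set 2 at 0.93. Genes of transfer RNA maturation and export had a median of 0.06 (10 of 16 above 0). In set 2 their median was 0.02, with Xpot, the transfer RNA exporter, at 0.87. Cytosolic elongation and initiation factors had a median of 0.12 with 10 of 10 above 0, and 0.01 in set 2. Mitochondrial translation factors had a median of 0.06 (7 of 9 above 0), mitochondrial ribosomal proteins 0.07 (53 of 77 above 0) and cytosolic ribosomal proteins 0.01 (42 of 78 above 0). In set 2 none of these lists reached the cytosolic enzymes' median of 0.74. In set 4 the cytosolic elongation and initiation factors stood at 0.45 and the mitochondrial translation factors at 0.38, beside 0.38 for the cytosolic enzymes. The rest of these lists stood at 0.13 to 0.31 there.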

How the data were processed

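Per the labels' protocols, total RNA of 11 samples of mouse cavernous endothelial cells was made into libraries with Clontech's stranded SMARTer chemistry. TopHat, edgeR and mm10 are listed, without versions or roles, in the submitters' processing notes. The deposited values are log2(normalized count + 1), 1 file per library; the sources used here do not give the kind of normalization, the gene annotation, the counting strand or the handling of reads with several positions. Undoing the log gave totals of 24789387 to 27807569 per library. These are sums of normalized counts and do not give the read depth of a library. No 2 libraries were alike: the smallest mean absolute log2 difference was 0.33. The genes at 0 were the same 2753 in every library of sets 4 and 5. They numbered 4916 to 6010 per library in sets 2 and 3. The cause of this difference was not tested, and low values may not compare between these sets. Of 23282 rows, 44 repeats of a symbol were dropped, leaving 23238 genes.

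The 18248 genes that reached a normalized count of 1 in 3 or more libraries were fitted with limma 3.58.1 in R 4.3.3 (trend and robust prior, 3 group means), and p-values were adjusted by Benjamini-Hochberg over all of them at a threshold of 0.05. A separate F test compared the 4 file sets. The code was tested on simulated data. Tables and plots used Python 3.11.15 with pandas 2.3.3 and matplotlib 3.10.9. Gene positions and exon lengths came from GENCODE M21 on GRCm38, and overlaps from the same annotation.

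The members and the gene lists were chosen with earlier results of these data known. Values in every library were given for the 3 cytosolic and 3 mitochondrial enzymes of smallest p in each comparison, including that among sets, and for Wars, Hars, Hars2, Gars, Kars and Eprs by role; pathway lists were limited to 3 such genes each, and the promoters of named members with a motif were shown. The scaffold genes, Xpot and the promoters of Iars, Tars, Yars and Wars2 lie outside this rule, as do the limit of 0.5 and some member values, and were chosen after their values were seen. A block for the file set was an alternative: libraries of 1 set deviated together for high and normal glucose (correlations 0.59, 0.30 and 0.28), and the pairing comes from the set number in the file names. For Hsp70 and high glucose they were 0.42, 0.69, 0.06 and 0.26, and for Hsp70 and normal glucose 0.46, 0.02 and 0.37, so not every pair passed 0.1. Other alternatives changed the libraries, the filter, the normalization, the pseudocount (8), the sample weights and the variance prior. Protein sequences were not used here. A few items are not reported here.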

Additional observations from a re-analysis of the deposited data

Results flagged for a closer look

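A single library far from the other 3 of its group was found in 6 of the 78 groups of 4 libraries examined with Dixon's 95% criterion; chance gives about 1 in 20 groups. In Hsp70 replicate 1, Nars was 13.70 (others 12.27 to 12.35), Tars was 12.77 (others 11.33 to 11.48) and Cars2 was 7.07 (others 7.68 to 7.69), all log2 values. In Hsp70 replicate 3, Mars2 was 3.81 (others 5.82 to 6.06). High glucose replicate 1 stood apart in Yars, at 10.28 (others 9.86 to 9.93), and in the median of the 20 cytosolic enzymes, at 11.40 (others 11.11 to 11.13). The 2 libraries of set 2 accounted for 5 of the 6.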

How the results depend on the processing

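In each group comparison limma called 0 of the 36 members under all 27 alternatives. Of 972 member differences recomputed per comparison, 126 changed sign in the comparison of glucose levels, 91 between Hsp70 and high glucose and 170 between Hsp70 and normal glucose, and the smallest adjusted p by limma was 1.0, 0.998 and 0.967. Without Hsp70 replicate 2, 3 genes, none of them members, were called in both Hsp70 comparisons (0 to 3 when any 1 library was left out). The cytosolic median of Hsp70 minus high glucose was -0.11 without both Hsp70 replicates 1 and 3, and 0.01 to 0.33 when any 1 library was left out. The other cytosolic medians ranged from -0.10 to 0.03 (high against normal glucose) and from -0.06 to 0.29 (Hsp70 against normal glucose) when any 1 library was left out. With the file set as a replicate block they were -0.22 and 0.02, and with a block by title number, whose paired correlations were mostly below 0, -0.01 and 0.20; either block left Hsp70 minus high glucose at 0.20, and no block changed a call. With sets 2 and 3 only, the mitochondrial medians were -0.10, 0.0586 and -0.19 in the 3 comparisons, and with sets 4 and 5 only the last was 0.22; leaving out any 1 library gave -0.0463 to 0.0839, -0.0831 to 0.0399 and -0.0522 to 0.1113. The cause of these shifts was not tested.

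Among the file sets, the calls over all genes were 1375 with no filter, 8529 with sample weights, 1396 without the trend and robust prior, 2 without set 3, and 613 to 5195 when any 1 library was left out. The members called were 0, 16, 0 and 0 in the same order, 3 with median centring and 0 to 10 when any 1 library was left out. With the mean in place of the median, the cytosolic minus mitochondrial gap was 2.69, 2.77 and 2.97 in normal glucose, 2.97, 2.61, 2.52 and 2.68 in high glucose, and 3.55, 2.55 and 2.91 in Hsp70 replicates 1 to 3, so Hsp70 replicate 1 was widest by either measure. Mars2 and Nars2 were the lowest enzymes, and the part of read depth in their values was not tested.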
